A study of Mus musculus with 8 samples.

Results

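The miR-181 family was measured in mouse kidney as the 4 mature microRNAs (miRNAs) mmu-miR-181a-5p, mmu-miR-181b-5p, mmu-miR-181c-5p and mmu-miR-181d-5p (mmu for mouse, left out below), chosen by name among the 1881 mouse miRNAs of the array. The scanner software marked all 4 as detected on all 8 arrays, as it did for 317 miRNAs in all, while 478 miRNAs were detected on at least 1 array. The samples were 4 kidneys with ischemia-reperfusion injury (IRI), labelled IRI 1, 2, 3 and 18, and 4 sham-operated kidneys, numbered sham 1, 2, 3 and 6. All came from male C57BL/6 mice 9 weeks old, per the study's design text. In IRI mice the right kidney was removed and the left was clamped for 25 or 45 min and collected 12 or 24 h later, whereas sham mice had only a midline incision, so that both kidneys stayed in place. The labels do not say which clamping and collection time each IRI kidney had, nor that each sample was a separate animal, so p-values measure the spread between these samples.

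MiRNAs are short RNAs that guide Argonaute proteins to messenger RNAs, mainly through the seed, the stretch of bases near the 5′ end that pairs with the target. The miR-181 family is best known in lymphocytes, where miR-181a tunes T cell receptor signalling, and in endothelium, where miR-181b dampens NF-kB signalling by acting on importin-alpha3. NF-kB is the transcription factor that drives adhesion molecules and cytokines, and its activation is a known feature of ischemic kidney injury.

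The mature sequences are shown because the members differ by few bases, which bears on both their targets and on how an array tells them apart. They are RefSeq sequences on GRCm38.p6, given 5′ to 3′ with the seed (bases 2 to 8) in capitals.
miR-181a-5p: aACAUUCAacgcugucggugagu
miR-181b-5p: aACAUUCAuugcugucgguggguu
miR-181c-5p: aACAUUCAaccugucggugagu
miR-181d-5p: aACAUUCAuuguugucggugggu
All 4 share the seed ACAUUCA, and of the 1679 mature miRNA names in the RefSeq table only these 4 carry it. Their differences lie after the seed. With positions counted from 1 at the 5′ end and the first-named member's base given first, miR-181a-5p and miR-181b-5p differed by A9U, C10U and A21G and by 1 base in length. MiR-181c-5p matched miR-181a-5p at 22 of 23 aligned positions, the other being a gap. MiR-181b-5p and miR-181d-5p differed by the substitution C12U and by 1 base in length.

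Pairs of genes on 3 chromosomes encode the family. Mir181a-1 and Mir181b-1 lie together on chromosome 1, on the plus strand, with the mature arms at chr1:137966468-137966490 and chr1:137966650-137966673. Their nearest annotated neighbours are Gm4258 on the left and Gm34353, followed by Ptprc, on the right. Mir181a-2 and Mir181b-2 lie together on chromosome 2, on the plus strand, at chr2:38852741-38852763 and chr2:38853845-38853868, where they overlap the annotated genes Nr6a1 and Nr6a1os. Mir181c and Mir181d lie on the minus strand of chromosome 8, at chr8:84178924-84178945 and chr8:84178759-84178781, with Nanos3 and the miRNA genes Mir23a and Mir27a as neighbours. The 5′ ends of the paired arms are 182, 1104 and 164 bases apart on chromosomes 1, 2 and 8. Both copies of miR-181a-5p have 1 mature sequence, as do both copies of miR-181b-5p, so the array reads the sum of chromosomes 1 and 2 for each.

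The array has 2 probes per member, each printed as 15 spots. They are shown because the difference between members rests on single bases of short probes; each is written 5′ to 3′ as DNA, with capitals for the bases that mismatch the nearest other member when aligned without gaps (the first in name order where 2 were equally near).
miR-181a-5p, 13 bases: acTcaccgacagc
miR-181a-5p, 14 bases: acTcaccgacagcG
miR-181b-5p, 13 bases: acCcaccgacagc
miR-181b-5p, 14 bases: acccaccgacaGca
miR-181c-5p, 18 bases: actcaccgacagGTtGAa
miR-181c-5p, 19 bases: actcaccgacagGTtGAaT
miR-181d-5p, 16 bases: acccaccgacaAcaat
miR-181d-5p, 17 bases: acccaccgacaAcaatg
The probes of miR-181a-5p and miR-181b-5p pair with the 3′ part of the miRNA and cover 0 seed bases. Those of miR-181d-5p reach 1 and 2 bases into the seed, and those of miR-181c-5p 4 and 5 bases. The 13-base probe of miR-181a-5p mismatched both miR-181b-5p and miR-181c-5p at 1 base, and its 14-base probe mismatched both at 2. The 13-base probe of miR-181b-5p mismatched both miR-181a-5p and miR-181d-5p at 1 base. Its 14-base probe mismatched miR-181d-5p at 1 base and miR-181a-5p at 2. The probes of miR-181d-5p mismatched miR-181b-5p at 1 base, while those of miR-181c-5p mismatched their nearest member, miR-181a-5p, at 4 and 5 bases. The latter counts allow no gap, and both miR-181c-5p probes still share an unbroken run of 12 bases with miR-181a-5p. How much signal a probe takes from another member was not tested.

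In injured kidneys miR-181b-5p was the 1 member that passed the test, at 66.6% of its sham level, while miR-181a-5p, miR-181c-5p and miR-181d-5p stood at 82.7%, 88.8% and 87.7% of sham and did not pass. Values below are scaled signals, meaning the summed signal of a member's probes divided by the 75th percentile of the 317 miRNAs detected on all arrays and brought back to the arrays' common scale. Tests are limma's moderated test on log2 signal over 379 miRNAs, those that every IRI array or every sham array detected, with Benjamini-Hochberg adjustment and a threshold of 0.05. Among those 379 miRNAs, 36.7% were called lower in IRI kidneys and 12.1% higher, so 1 of 4 members lower is no larger a share than in the array as a whole. The median log2 change was -0.23 over the 4 members and -0.11 over all miRNAs tested. Since whole kidney was used, fewer cells of a type and less RNA per cell cannot be told apart.

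MiR-181b-5p had scaled signals of 74.4, 71.2, 67.2 and 51.7 in IRI 1, 2, 3 and 18, against 93.5, 103.0, 101.3 and 96.0 in sham 1, 2, 3 and 6. Every IRI kidney lay below every sham kidney, with a clear gap between the groups. The means were 66.1 ± 10.04 in IRI kidneys and 98.5 ± 4.43 in sham kidneys (SD, n = 4 each). It fell by 0.59 on the log2 scale (SE 0.12, 95% interval -0.86 to -0.32, limma adjusted p = 0.00473), which was rank 18 of 379 counted from the most negative change. Leaving out 1 array at a time gave log2 changes of -0.65 to -0.47, with limma adjusted p between 0.00354 and 0.0171. Within the 4 slide columns, each of which held 1 IRI and 1 sham array, the log2 difference was -0.33 to -0.89 and below 0 in 4 of 4. Over 30 other settings, limma adjusted p was 0.00123 to 0.365, and 27 kept the call. It was not called without scaling between arrays, with scaling to the labelling spike-ins or with the shorter probe of each miRNA alone (described with those results).

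MiR-181a-5p, encoded beside miR-181b-5p at both sites, had scaled signals of 327, 311, 291 and 242 in IRI 1, 2, 3 and 18, against 328, 350, 355 and 377 in sham 1, 2, 3 and 6. The groups did not overlap, but IRI 1 lay barely below sham 1. Its log2 change was -0.27 (SE 0.10, 95% interval -0.51 to -0.04), and the limma adjusted p of 0.0556 missed the threshold. It passed when IRI 1 was left out (log2 change -0.33, limma adjusted p = 0.0317), and in 4 of 30 other settings in all, over which adjusted p was 0.0317 to 0.919. Members whose IRI values all lay below sham were 2 of 4, against 35.9% of the miRNAs tested; 0 of 4 had all IRI values above sham, against 10.6%.

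MiR-181c-5p had scaled signals of 59.4, 53.2, 46.6 and 43.8 in IRI 1, 2, 3 and 18, against 54.5, 57.6, 59.1 and 55.7 in sham 1, 2, 3 and 6. The groups overlapped, since IRI 1 exceeded all sham kidneys while the other 3 IRI kidneys lay below them. The log2 change was -0.17 (SE 0.10, 95% interval -0.40 to 0.06, limma adjusted p = 0.193). Without IRI 1 it was -0.25 with a limma adjusted p of 0.0372, and adjusted p over 30 other settings ranged between 0.031 and 0.737.

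MiR-181d-5p, the dimmest member, had scaled signals of 29.3, 27.1, 24.2 and 23.4 in IRI 1, 2, 3 and 18, against 30.1, 31.6, 25.6 and 31.2 in sham 1, 2, 3 and 6. The groups overlapped through sham 3, which lay below IRI 1 and IRI 2. The log2 change was -0.19 (SE 0.10, 95% interval -0.42 to 0.04, limma adjusted p = 0.157). Its signal was close to the background: its 16-base probe had no spot well above background on 5 of 8 arrays, and its 17-base probe had none on 2. The intervals of miR-181a-5p, miR-181c-5p and miR-181d-5p all reach below -0.40, so decreases of that size are within the error of these data.

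In each of the 4 members IRI 1 was the highest IRI array and IRI 18 the lowest after scaling. Before scaling IRI 18 was also the lowest in each. IRI 2 was then slightly above IRI 1 for miR-181a-5p (390 against 388) and miR-181b-5p (89.3 against 88.3). IRI 18 stood at 52.5% of the sham mean for miR-181b-5p, 68.7% for miR-181a-5p, 77.2% for miR-181c-5p and 79.1% for miR-181d-5p. IRI 1 stood at 75.5%, 92.8%, 104.6% and 98.8% for the same members. The spread within IRI kidneys, as a coefficient of variation, was 15.2%, 12.6%, 13.7% and 10.3% for members b, a, c and d, against 4.501%, 5.64%, 3.61% and 9.32% in sham kidneys. Deviations from the group means correlated between members at r = 0.53 to 0.91 over 8 arrays, where the arrays share their scaling and the probes share bases.

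**Figure D1:**
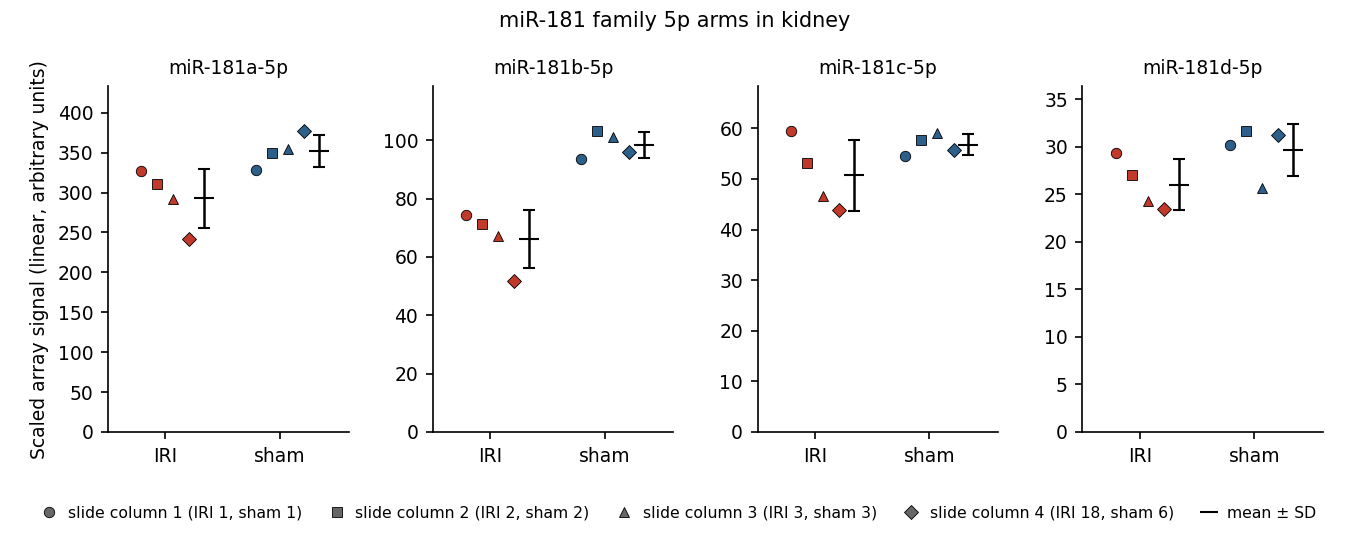
Scaled signal (linear, arbitrary units, axis from 0) of the 4 members on each array, IRI left and sham right, with the mean and SD of 4 arrays; marker shape gives the slide column. All IRI values of miR-181b-5p (51.7 to 74.4) lie below all sham values (93.5 to 103.0), miR-181a-5p separates narrowly, and the other members overlap.

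Whether the members changed unequally was asked of the ratio of 2 members on the same array, in which any factor common to the array cancels. Relative to each of the other 3 members, miR-181b-5p was lower in IRI kidneys, at 80.5% of the sham ratio to miR-181a-5p, 74.9% of that to miR-181c-5p and 75.9% of that to miR-181d-5p. Such ratios compare probe signals and not amounts, so only their difference between groups is read.

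The log2 ratio of miR-181b-5p to miR-181a-5p was -2.14, -2.13, -2.12 and -2.23 in IRI 1, 2, 3 and 18, against -1.81, -1.76, -1.81 and -1.97 in sham 1, 2, 3 and 6. The groups did not overlap, and the difference was -0.31 (95% interval -0.46 to -0.15). The log2 ratio of miR-181b-5p to miR-181c-5p was 0.32, 0.42, 0.53 and 0.24 in the same IRI arrays, against 0.78, 0.84, 0.78 and 0.79 in the sham arrays. Here the sham ratios agreed closely (SD 0.03), the IRI ratios were scattered below them (SD 0.13), and the difference was -0.42 (95% interval -0.60 to -0.25). The log2 ratio of miR-181b-5p to miR-181d-5p was 1.34, 1.39, 1.47 and 1.14 in IRI arrays, against 1.63, 1.70, 1.98 and 1.62 in sham arrays. These groups were separate too, with sham 3 the highest, and the difference was -0.40 (95% interval -0.84 to -0.15).

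For each of these 3 ratios the exact two-sided permutation test gave p = 0.0286, the smallest that 4 against 4 arrays allow. The 3 ratios share miR-181b-5p and the same arrays, so they are not 3 independent results. Adjusted over the 6 pairs of members it was 0.0571, above the threshold, and 4 pairs at that smallest p would have been needed to pass it. The 3 differences were below 0 in 4 of 4 slide columns, and an exact sign-flip test over columns gave p = 0.125, the smallest that 4 columns allow. Without IRI 3 these 3 ratios and that of miR-181a-5p to miR-181c-5p each had an adjusted exact permutation p of 0.0429. For miR-181b-5p against miR-181a-5p, adjusted p ranged between 0.0429 and 0.5 over the 18 other settings that can move a ratio within an array. The 0.5 came from the replicate block on numbers 1 to 3, with an exact sign-flip p of 0.25. The same arrays without the block gave an exact permutation p of 0.1 (adjusted 0.2). Each was the smallest p that so few arrays allow, so neither setting could have passed. Some settings with all 8 arrays also gave a larger p than 0.0286. For miR-181b-5p against miR-181a-5p, normexp background correction gave -0.13 (exact permutation p = 0.114, adjusted 0.229). Quantile normalization gave -0.36 (exact permutation p = 0.0571, adjusted 0.114). Against miR-181d-5p, the scanner's total gene signal and the deposited table each gave -0.55 (exact permutation p = 0.114, adjusted 0.229).

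The ratios among the other 3 members overlapped between groups. The log2 ratio of miR-181a-5p to miR-181c-5p differed by -0.10 (95% interval -0.30 to 0.06, exact permutation p = 0.2, adjusted 0.3). That of miR-181a-5p to miR-181d-5p differed by -0.08 (95% interval -0.42 to 0.14, exact permutation p = 0.457, adjusted 0.549). For miR-181d-5p to miR-181c-5p, which share a locus on chromosome 8, the difference was -0.02 (95% interval -0.18 to 0.30, exact permutation p = 0.886, adjusted 0.886). These intervals still reach 0.30, 0.42 and 0.30 in size on the log2 scale, so unequal changes up to those sizes are within the error.

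**Figure D2:**
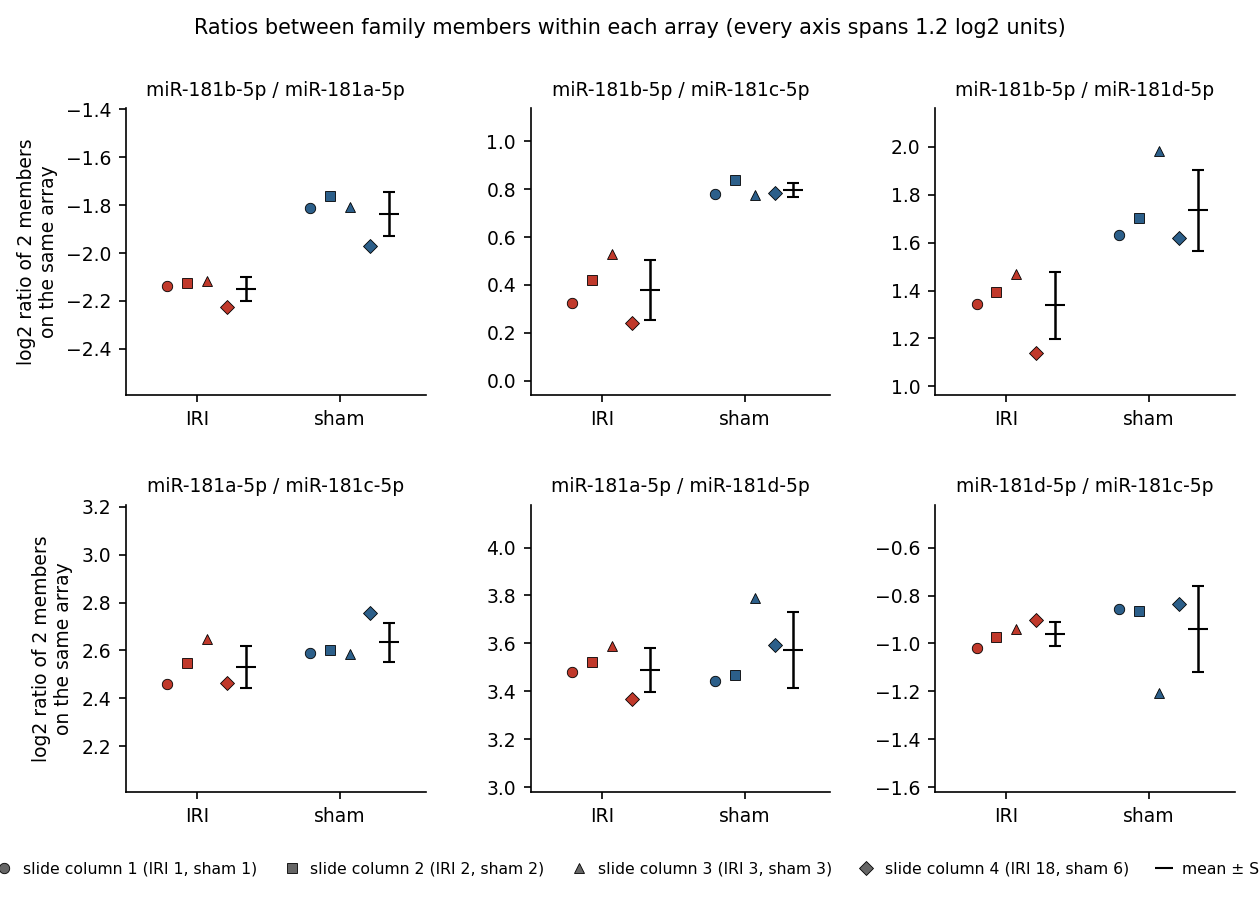
Log2 ratio of 2 members on the same array for the 6 pairs, IRI left and sham right, with the mean and SD of 4 arrays; all axes span the same number of log2 units and marker shape gives the slide column. The 3 ratios with miR-181b-5p (top) separate the groups, and the other 3 (bottom) overlap.

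Both probes of miR-181b-5p separated the groups. Its 13-base probe read 29.5, 30.1, 27.0 and 21.6 in IRI arrays, against 36.0, 39.0, 38.3 and 34.99 in sham arrays. Its 14-base probe read 44.8, 41.1, 40.2 and 30.1 in IRI arrays, against 57.5, 64.0, 62.9 and 61.0 in sham arrays. Mean signals in IRI arrays were at 72.9% of sham for the 13-base probe, which mismatches 2 other members at 1 base, and 63.6% for the 14-base probe, which mismatches 1 member at 1 base. The probes of miR-181a-5p were at 83.2% and 83.1% of sham, those of miR-181c-5p at 91.3% and 88.2%, and the 17-base probe of miR-181d-5p at 87.8%; all of these except the 14-base probe of miR-181a-5p overlapped between groups. The 16-base probe of miR-181d-5p is given no percentage, since it had no spot well above background on 5 of 8 arrays. With every miRNA read by its shorter probe alone, the log2 change of miR-181b-5p was -0.37 and its limma adjusted p 0.0591, which missed the threshold; with the longer probe alone it was -0.54 (limma adjusted p = 0.0137). In that reading the ratio of miR-181b-5p to miR-181a-5p differed by -0.19 with the shorter probes (exact permutation p = 0.0857).

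**Figure D3:**
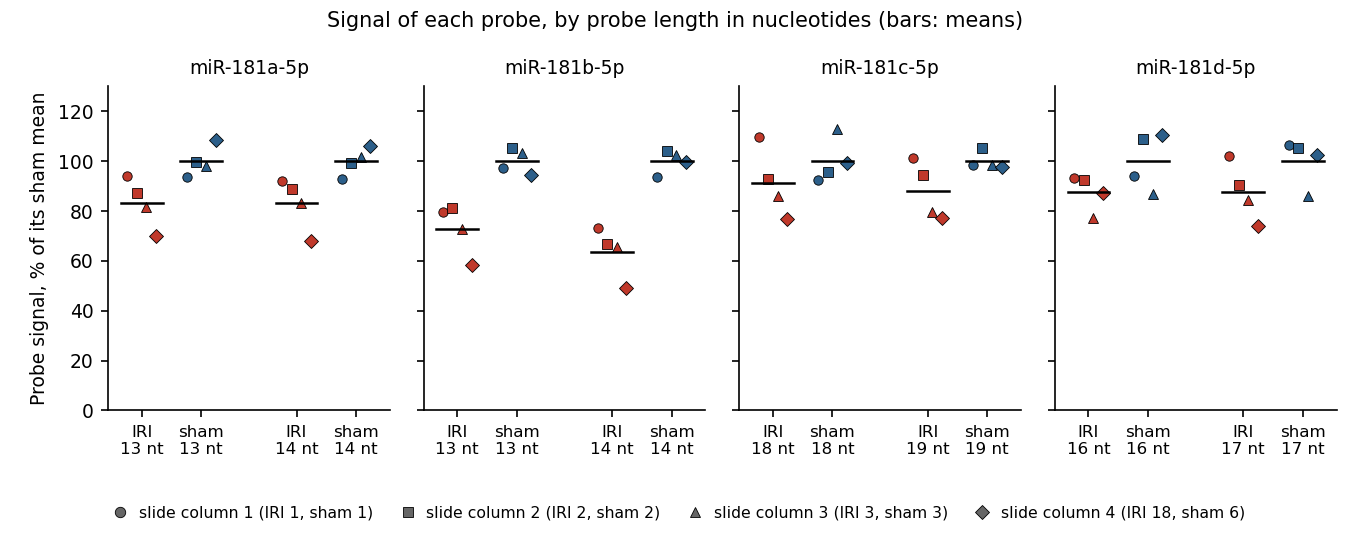
Signal of each probe as a percentage of its own sham mean, on an axis from 0, for IRI (left of each pair) and sham arrays, by member and probe length in bases (nt); horizontal bars are means of 4 arrays and marker shape gives the slide column. Both probes of miR-181b-5p have IRI means (72.9% and 63.6%) below those of the probes of miR-181a-5p and miR-181c-5p (83.1% to 91.3%); the 16-base probe of miR-181d-5p had no spot well above background on 5 of 8 arrays.

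The size and, for 3 members, the sign of the change depended on how arrays were made comparable. The 75th percentile used for scaling was itself 500 ± 55.9 in IRI arrays and 406 ± 49.8 in sham arrays (SD, n = 4 each), and 393 to 447 miRNAs were detected on an IRI array, against 327 to 379 on a sham array. Before scaling, mean signals were 74.5 ± 18.0 in IRI arrays and 89.1 ± 11.2 in sham arrays for miR-181b-5p, and 330 ± 72.7 in IRI arrays and 317 ± 25.0 in sham arrays for miR-181a-5p. Without scaling the log2 changes were -0.28 for miR-181b-5p (limma adjusted p = 0.327), 0.03 for miR-181a-5p, 0.13 for miR-181c-5p and 0.11 for miR-181d-5p, and none passed. Scaling to the labelling spike-ins gave -0.26 for miR-181b-5p (limma adjusted p = 0.365) and values between 0.05 and 0.15 for the other 3. The median of all miRNAs tested moved with them, to 0.17 without scaling and 0.19 with spike-ins, against -0.11 in the main scaling. Of the 379 miRNAs, 0.264% were called lower and 14% higher without scaling, and 0.528% lower and 19% higher with spike-in scaling. These scalings shift all miRNAs of an array alike, so a member's distance from that median is fixed by construction apart from the floor, and its agreement across them is no support. That distance was -0.47 for miR-181b-5p, -0.16 for miR-181a-5p, -0.06 for miR-181c-5p and -0.08 for miR-181d-5p in the main scaling. Of the settings plotted, quantile normalization and normexp background correction can move it, and for miR-181b-5p they gave -0.54 and -0.18. The normexp setting also added an offset of 50 to every spot. In that setting the dimmer miR-181c-5p and miR-181d-5p had log2 changes of -0.19 and -0.22, against -0.17 and -0.19 in the main scaling. The median of all miRNAs tested was -0.17, against -0.11. How far the offset changed the -0.18 was not tested.

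**Figure D4:**
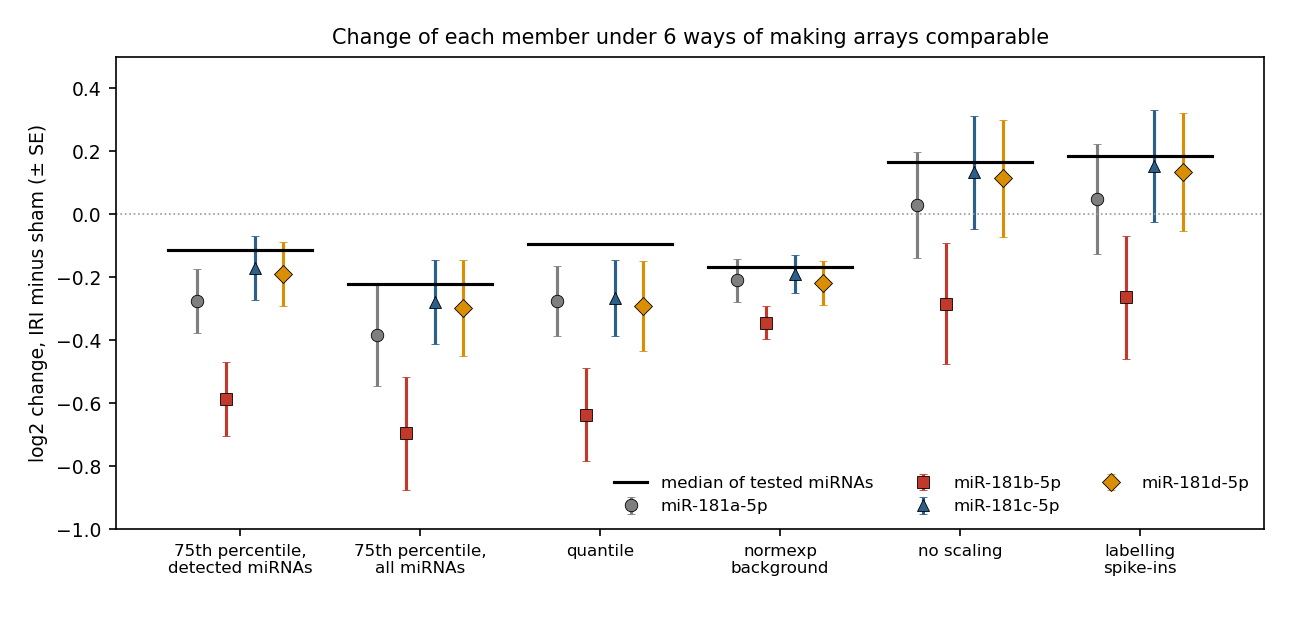
Log2 change (IRI minus sham, ± SE, 4 arrays each) of the 4 members under 6 ways of correcting or scaling the arrays, with the median change of the 379 miRNAs tested as a black line. The other 3 members lie above 0 without scaling and with spike-in scaling; the order of the members is fixed by construction among both percentile scalings, no scaling and spike-ins, and miR-181b-5p is also the lowest with quantile normalization and normexp.

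The opposite (3p) arms of the 6 precursors, which are usually degraded once the 5p arm is loaded, were all on the array and 0 of 6 were detected on any array. None was tested. The brightest was miR-181a-1-3p, cut from the same hairpin on chromosome 1 as 1 copy of miR-181a-5p, with signals of 12.1, 10.8, 11.5 and 8.54 in IRI 1, 2, 3 and 18, against 14.9, 14.4, 17.2 and 16.4 in sham 1, 2, 3 and 6. These values separated the groups but lay below 17.3, the floor to which low signals were raised for testing. A change in the 3p arms was not measurable at this signal.

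Other miRNAs with known links to NF-kB or endothelial inflammation were read from the same test. Of 6, 5 were bright enough to be tested: 1 rose, 2 fell and 2 did not pass, beside 12.1% higher and 36.7% lower over all miRNAs tested. MiR-21a-5p, an NF-kB-responsive miRNA that targets Pdcd4, rose by 1.47 on the log2 scale (SE 0.16, limma adjusted p = 0.000633), with 15093 to 26431 in IRI kidneys against 6822 to 7764 in sham kidneys. MiR-126a-3p, an endothelial miRNA that restrains Vcam1, fell by 0.32 (SE 0.07, limma adjusted p = 0.00788), and miR-10a-5p, which in endothelium acts on the NF-kB pathway, fell by 0.29 (SE 0.07, limma adjusted p = 0.00831). MiR-146a-5p, which targets the adaptors Irak1 and Traf6, had 124 to 175 in IRI kidneys and 144 to 331 in sham kidneys, with a log2 change of -0.53 (SE 0.25, limma adjusted p = 0.117), or -0.28 without sham 2, its highest array. MiR-155-5p, an inflammatory miRNA of leukocytes, had a log2 change of 0.07 (SE 0.10, limma adjusted p = 0.573). MiR-146b-5p was detected on 1 IRI array and was not tested. The calls on miR-126a-3p and miR-10a-5p did not hold without scaling or with spike-in scaling, while miR-21a-5p passed in 30 of 30 other settings.

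Markers of the cell types that a kidney holds were read beside these results, as summed scaled signal per array. Kidney tubule miRNAs were detected on all 8 arrays, as the tissue label implies, and 4 of 4 were called lower, beside 36.7% of all miRNAs tested, with sums of 10072 to 11516 in IRI arrays and 13971 to 16412 in sham arrays. Both endothelial miRNAs were called lower, with sums of 3836 to 4321 in IRI arrays and 4623 to 5333 in sham arrays. Without scaling, and with spike-in scaling, 0 of 4 tubule and 0 of 2 endothelial miRNAs were called lower; their limma adjusted p was then 0.0904 to 0.637 and 0.803 to 1. Of 5 lymphocyte miRNAs 0 passed the test, and their sums overlapped, at 544 to 796 in IRI arrays and 505 to 653 in sham arrays. The brightest in these sums was miR-142a-3p, at 328 to 488 in IRI arrays and 263 to 395 in sham arrays. The 5 did not move alike. MiR-150-5p had a log2 change of -0.57 (limma adjusted p = 0.0566) and miR-342-3p of -0.14. Those of miR-155-5p, miR-142a-5p and miR-142a-3p were 0.07, 0.19 and 0.29. The myeloid miR-223-3p was higher, at 270 to 448 in IRI arrays and 117 to 137 in sham arrays, while miR-223-5p was not detected. Of 4 red blood cell miRNAs 3 were tested and called higher, beside 12.1% of all miRNAs tested. Their sums were 2948 to 4100 in IRI arrays and 43.0 to 904 in sham arrays. MiR-144-3p (detected on 2 of 4 sham arrays) and miR-486a-5p (0 of 4) entered the test only through the IRI arrays, where they were high. Their calls could therefore hardly have gone the other way. MiR-144-5p was detected on 1 IRI array and was not tested. Muscle and neuron lists had 1 tested miRNA each, miR-1a-3p (lower, but not called without scaling or with spike-ins) and miR-9-5p (not called), with miR-133a-3p, miR-206-3p and miR-124-3p not detected. The part of these cell types in the change of miR-181b-5p was not tested.

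The miRNAs whose pattern was most like each member were taken as the 3 with the highest Pearson correlation of log2 signal over the 8 arrays, among 313 candidates outside the family. For miR-181b-5p these were miR-145a-5p (r = 0.974), miR-100-5p (r = 0.968) and miR-143-3p (r = 0.968), with log2 changes of -0.53, -0.39 and -0.43. For miR-181a-5p they were miR-497a-5p (r = 0.994), miR-195a-5p (r = 0.986) and miR-199a-3p (r = 0.972), with log2 changes of -0.32, -0.35 and -0.37, the last not called (limma adjusted p = 0.0665) and at -0.23 without IRI 18. Without scaling these 3 changes were -0.02, -0.04 and -0.07, and those of the 3 nearest to miR-181b-5p were -0.23, -0.09 and -0.13, with 0 of 6 called; spike-in scaling also called 0 of 6. Within groups, as deviations from the group means, the correlation was 0.89 to 0.93 for the 3 nearest to miR-181b-5p and 0.95 to 0.99 for the 3 nearest to miR-181a-5p. For example, miR-497a-5p read 614, 561, 549 and 438 in IRI 1, 2, 3 and 18, the same order as every member, against 612, 678, 671 and 732 in sham 1, 2, 3 and 6. Likeness was weaker for the dimmer members: miR-326-3p, miR-350-3p and miR-150-5p followed miR-181c-5p at r = 0.896 to 0.904, and miR-350-3p, miR-150-5p and miR-195a-5p followed miR-181d-5p at r = 0.810 to 0.921. The arrays share scaling, and these correlations describe 8 arrays only.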

How the data were processed

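Total RNA of kidney (30 mg) was labelled with Cy3 (100 ng) and hybridised to single-colour Agilent mouse miRNA arrays, per the labels' protocols. The deposited scanner files hold linear intensity from Agilent Feature Extraction 12.0.3.1, with a fitted background subtracted and no normalization between arrays, per the file headers. All 8 arrays lay on 1 slide, IRI and sham in different slide rows, so slide row and group cannot be told apart; columns held 1 array of each. The 0 or 1 detection marks are the scanner's. A table of values that the authors deposited, 1 linear ratio for each miRNA and array, served as an alternative; its scaling and centring stay unknown, and a higher value means more signal. Its column medians were 0.658, 0.646, 1.16 and 0.749 for IRI 1, 2, 3 and 18 and 0.859, 1.23, 1.29 and 1.3 for sham 1, 2, 3 and 6.

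Control spots and outlier spots (1422 to 1560 per array) were left out; 0 were saturated. Spots of a probe were averaged and probes of a miRNA summed. Arrays were scaled to the 75th percentile, given a lower limit of 17.3 (the 5th percentile over detected miRNAs) and taken to log2. Limma 3.58.1 in R 4.3.3 was checked on simulated data. The number of arrays limits the precision. Ratios of members were tested by exact permutation over 35 splits of the arrays, and their intervals come from inverting that test. The intervals assume that the groups differ by a shift alone, with equal spread. The ratio of miR-181b-5p to miR-181c-5p had unequal spread (SD 0.13 in IRI and 0.03 in sham arrays). Since p moves in steps of 0.0286, the intervals cover somewhat more than 95% under that assumption. Sequences were aligned with Biopython 1.88. Named miRNAs were the members, their opposite arms, the tested miRNAs of the NF-kB list, and 3 nearest by correlation. The members and lists were chosen with earlier results of these data known. Same-numbered samples did not deviate together (r = -0.16, -0.20 and 0.24 for numbers 1, 2 and 3), so no pairing was used. Alternatives covered scaling, background correction, probe summaries, filters, floors, variance models, blocks and leaving out arrays.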

Additional observations from a re-analysis of the deposited data

Results flagged for a closer look

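Within groups of 4 arrays, 48 sets of values were screened for a single array far from the other 3, taking the gap to its nearest neighbour as a share of the whole range, against Dixon's 95% critical value; chance alone marks about 1 set in 20. Of the 6 found, 3 concerned ratios to miR-181c-5p in sham kidneys, each through a different array. The log2 ratio of miR-181b-5p to miR-181c-5p was highest in sham 2 (0.84, gap share 0.845), that of miR-181a-5p to miR-181c-5p was highest in sham 6 (2.76, gap share 0.903), and that of miR-181d-5p to miR-181c-5p was lowest in sham 3 (-1.21, gap share 0.913). The sham 3 value coincides with the lowest sham signal of miR-181d-5p (25.6). Outside the family, miR-146a-5p was highest among IRI kidneys in IRI 1 (175, gap share 0.844), miR-126a-3p was lowest among sham kidneys in sham 2 (4476, gap share 0.908), and miR-326-3p was highest among sham kidneys in sham 3 (37.1, gap share 0.890).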

How the results depend on the processing

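Over 30 other settings the change of miR-181b-5p stayed below 0 in all 30. It lost its call with no scaling (-0.28), spike-in scaling (-0.26) and the shorter probe alone (-0.37, a setting chosen after seeing the data). No scaling turned the sign of miR-181a-5p (0.029), miR-181c-5p (0.13) and miR-181d-5p (0.11), as did spike-in scaling (0.049, 0.15 and 0.13), both through the scaling factors themselves; the scanner's total gene signal turned miR-181d-5p (0.0076), and the cause was not tested. Normexp background correction, which included an offset of 50 on every spot, brought miR-181a-5p (-0.21), miR-181c-5p (-0.19) and miR-181d-5p (-0.22) past the threshold. MiR-181b-5p was then at -0.34, against -0.59 in the main scaling. The part of the offset in this, and why the other members passed, was not tested. MiR-181a-5p also passed with limma's trend (-0.27, adjusted p = 0.0497) and array weights (-0.22). Leaving out 1 array gave -0.33 to -0.19 for miR-181a-5p, -0.65 to -0.47 for miR-181b-5p, -0.25 to -0.10 for miR-181c-5p and -0.25 to -0.14 for miR-181d-5p. With the replicate block on numbers 1 to 3, which fits fewer arrays, miR-181b-5p was at -0.49 (limma adjusted p = 0.0482), miR-181a-5p at -0.15, miR-181c-5p and miR-181d-5p at -0.11, with 17 miRNAs called higher and 50 lower; the same arrays without the block gave 37 and 121. Calls over the array, 46 higher and 139 lower, became 53 and 1 with no scaling, 72 and 2 with spike-in scaling, 18 and 159 with normexp, and 21 and 90 with all 1881 miRNAs tested; the shorter probe gave 89 lower, and leaving out 1 array gave 36 to 64 higher and 114 to 144 lower.

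Of 27 other settings, 9 cannot move a ratio of members within an array (scalings, floors, filters on the miRNAs tested, the mean of probes and the column block). In the other 18, differences between members were below 0 for miR-181b-5p against all 3 and for miR-181a-5p against miR-181c-5p. They spanned -0.39 to -0.13 for miR-181b-5p against miR-181a-5p, -0.48 to -0.15 against miR-181c-5p and -0.55 to -0.13 against miR-181d-5p. For miR-181a-5p against miR-181c-5p they spanned -0.14 to -0.0085. Leaving out 1 array gave -0.36 to -0.29 for miR-181b-5p against miR-181a-5p, -0.47 to -0.37 against miR-181c-5p and -0.44 to -0.31 against miR-181d-5p, and -0.14 to -0.062 for miR-181a-5p against miR-181c-5p; the 4 values without IRI 3 (-0.32, -0.47, -0.44 and -0.14) passed the threshold. The sign turned for miR-181a-5p against miR-181d-5p under quantile normalization (0.017) and normexp (0.0087), and for miR-181d-5p against miR-181c-5p with total gene signal and the deposited table (0.137 each) and when 1 array was left out (-0.11 to 0.017). The cause was not tested. Of the other miRNAs named, miR-155-5p turned to -0.039 when the percentile was taken over every miRNA, -0.026 under quantile normalization, -0.11 with normexp, -0.040 with array weights and -0.029 on numbers 1 to 3 with or without the block, and spanned -0.0048 (without IRI 18) to 0.12 when 1 array was left out. MiR-10a-5p turned to 0.015 with no scaling, 0.034 with spike-ins and 0.064 with quantile normalization, miR-126a-3p to 0.00032 with spike-ins and 0.13 with quantile normalization, and miR-350-3p to 0.20, 0.22, 0.026 and 0.0043 with no scaling, spike-ins, the shorter and the longer probe. Signal close to the background limits miR-181d-5p and the 3p arms.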
